A study of Mus musculus with 12 samples.

Results

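The chromatin around 36 neuronal structure and synapse genes was examined in mouse embryonic fibroblasts (MEFs) on day 2 of reprogramming towards hepatocytes, with and without overexpression (OE) of Prox1. The genes encode proteins of the axon and dendrite cytoskeleton, neuronal RNA-binding proteins, the machinery of synaptic vesicle release, synaptic organisers and scaffolds, glutamate receptors and ion channels, and adhesion and guidance molecules. A window of the accessibility table was taken as a member when it overlapped the body of one of the genes or the 10 kb on either side (GENCODE M21, mm10). All 36 genes were found, and 745 of 176680 windows (0.422%) belonged to them, from 1 window at Nefl to 99 at Dlg2. All 745 windows were 201 bases wide.

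Accessibility was measured by ATAC-seq. The assay uses a transposase, Tn5, that cuts and tags open DNA more often than DNA packed in nucleosomes. The series holds 12 libraries in 4 groups of 3 (MEF, Prox1_OE, 4in1_GFP_OE and 4in1_Prox1_OE), all from primary MEFs of wild-type C57BL/6N embryos that received doxycycline and a lentivirus for rtTA, the doxycycline-dependent activator. Of the 2 groups compared here, 4in1_GFP_OE also received the 4in1 vector (LV.4TF) with liver reprogramming factors, whose names the labels do not give, and tetO-GFP, and 4in1_Prox1_OE received 4in1 and tetO-FLAG-mmProx1. A transduced culture can be a mixture of cells that took up the vectors and cells that did not, and the labels do not say whether the 3 replicates of a group came from separate embryos or cultures, while the study's reporting summary speaks of independent biological replicates in general. The MEF and Prox1_OE groups were not analysed here.

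Each value below is the authors' mean over the 3 libraries of a group, in normalized reads per window, and a difference is the log2 mean of 4in1_Prox1_OE minus that of 4in1_GFP_OE. Values of single libraries were not analysed here, so depth per library is unknown, no difference could be set against the spread between replicates, and no test was made. A window at least 2-fold apart (a difference of 1 or more on the log2 scale in either direction) is counted as lower or higher with Prox1, as a description. Over all windows the median difference was -0.42, so that a typical window had fewer reads with Prox1, and differences are also given relative to that median. At the Prox1 gene itself, 3 windows over coding exons went from between 3.42 and 16.1 reads in 4in1_GFP_OE to between 1632 and 6847 in 4in1_Prox1_OE. The vector carries the mouse Prox1 sequence, so these windows check the labels and say nothing of the chromatin at Prox1. As for the labelled cell type, the 15 fibroblast genes examined, among them the collagen gene Col1a1 and the receptor gene Pdgfra, all had a promoter window, against 2 of the 14 hepatocyte genes found. Of the 36 neuronal genes 33 had a promoter window too, in cells labelled as fibroblasts. So did 6 of 6 epithelial, 5 of 6 endothelial, 9 of 12 glial and Schwann cell and 2 of 6 macrophage genes. A promoter window alone therefore does not tell the cell type. The share of all protein-coding genes with one was not computed.

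Neuronal genes are expressed in neurons and silent in most other cells. In non-neuronal cells many of them are held silent by the zinc finger repressor REST, which binds a long element called RE1 in or near its targets and recruits enzymes that remove histone acetylation. Their promoters are often rich in CpG dinucleotides, and such promoters can be accessible in cells that do not express the gene. The enhancers of fibroblasts, in contrast, are rich in sites for AP-1, the dimer of Fos and Jun proteins, and for TEAD factors, which act with YAP and TAZ. Prox1 is a homeodomain protein of hepatocytes, lymphatic endothelium and neural progenitors.

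Among the 745 windows, 11 held the core of RE1 without a mismatch. The core was searched on both strands as CAGCACC, any 2 bases, then GGACAG, from general knowledge of the element. These windows hold 13 exact matches at 10 genes. Those of Syp and Celf4 are not printed, and the other 11, in 9 windows of 8 genes, are shown because RE1 is the element through which REST is known to act on such genes. Each is read from the GRCm38 (mm10) reference in the direction of the element, with 6 bases on either side, and the capitals mark the 13 letters that were searched.
Nefh (chr11:4949394-4949420, + strand): tcgcttCAGCACCacGGACAGcagccg
Nefm (chr14:68125720-68125746, + strand): atccggCAGCACCaaGGACAGcgccca
Stmn2 (chr3:8508226-8508252, + strand): ccatttCAGCACCacGGACAGcgcttc
Rbfox3 (chr11:118584950-118584976, - strand): cgggttCAGCACCagGGACAGtaacaa
Rbfox3 (chr11:118906746-118906772, - strand): gggcggCAGCACCaaGGACAGggctag
Snap25 (chr2:136714284-136714310, + strand): ggagctCAGCACCctGGACAGgagtgc
Snap25 (chr2:136714334-136714360, + strand): acctttCAGCACCgcGGACAGcgatcc
Shank2 (chr7:144294453-144294479, - strand): ccgtttCAGCACCatGGACAGaggaaa
Scn2a (chr2:65619960-65619986, + strand): ggctttCAGCACCacGGACAGcaccag
L1cam (chrX:73869505-73869531, - strand): ggcctcCAGCACCacGGACAGcagacc
L1cam (chrX:73869535-73869561, - strand): gggcgtCAGCACCatGGACAGgaacat

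The gene for the neurofilament heavy chain, Nefh, has its match 1.34 kb upstream of its start, and Stmn2, which encodes a microtubule regulator of growing axons, has it 1.12 kb upstream. Those of Nefm, Scn2a, Snap25, Syp and L1cam lie in windows within 1 kb of a start site. The matches of Rbfox3, the gene for the NeuN antigen, and of the scaffold gene Shank2 lie in introns. Snap25 and L1cam each have 2 exact matches in 1 window. For Snap25, a membrane fusion protein of the vesicle machinery, they start at bases 62 and 112 of the window. An Rbfox3 intron window has 1 exact match and 2 more with 1 mismatch each. These windows are shown whole, on the + strand, with the matches in capitals, which read as the reverse complement in Rbfox3.
Snap25 (chr2:136714229-136714429): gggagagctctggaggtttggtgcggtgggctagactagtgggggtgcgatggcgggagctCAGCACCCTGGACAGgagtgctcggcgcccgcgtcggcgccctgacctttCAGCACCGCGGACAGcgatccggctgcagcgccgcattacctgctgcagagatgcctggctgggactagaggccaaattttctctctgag
Rbfox3 (chr11:118584910-118585110): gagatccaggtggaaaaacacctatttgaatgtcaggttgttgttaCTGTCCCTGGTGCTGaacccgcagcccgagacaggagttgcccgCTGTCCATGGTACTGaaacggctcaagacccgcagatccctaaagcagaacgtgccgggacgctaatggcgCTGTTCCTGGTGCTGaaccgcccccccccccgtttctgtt

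At the 11 windows with an exact core the differences between the arms ran from -0.62 to 0.42, with a median of -0.07. The RE1 window of Snap25 had 344 reads in 4in1_GFP_OE and 303 in 4in1_Prox1_OE, a difference of -0.19. Upstream of Nefh there were 265 and 251 reads, a difference of -0.08. The Rbfox3 windows had 133 and 168 reads (0.33) at the one with 3 matches, and 160 and 165 reads (0.04) at the one with its match 4.84 kb into the gene. Both windows were slightly higher with Prox1.

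At Scn2a, a sodium channel gene, the RE1 window had 69.5 and 66.4 reads, a difference of -0.07. L1cam, which encodes an axon adhesion molecule, had 69.2 and 79.0 reads (0.19) at its RE1 window. The RE1 window of Syp, the gene for the vesicle protein synaptophysin, had 150 and 201 reads, and its difference of 0.42 was the highest of the 11. The RNA-binding protein gene Celf4 had an intron window with 4 matches, 1 of them exact, and 296 and 319 reads (0.11).

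Lower values were found at the other three. The intron window of Shank2 had 132 and 104 reads, a difference of -0.34. Upstream of Nefm, the gene for the medium neurofilament chain, there were 142 and 102 reads (-0.48). The window upstream of Stmn2 had 129 and 83.5 reads, and its difference of -0.62 was the lowest. AP-1 letters are also present in 4 of the 11 windows, those of Stmn2 (-0.62), Nefh (-0.08), Scn2a (-0.07) and Syp (0.42), at both ends of the range. Of the 11 windows, 0 were at least 2-fold lower and 0 at least 2-fold higher. Among all 240 windows with an exact core these shares were 3.33% and 2.50%, so the neuronal count lies near that background.

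Exact RE1 cores were more frequent at the neuronal genes than elsewhere, at 1.48% of their windows against 0.136% (240) of all windows. With up to 2 mismatches, 31 of the 745 windows (4.16%), at 20 of the 36 genes, held the core, against 1.74% of all windows. Their median difference was -0.08, and that of the neuronal windows without it was -0.41. By at least 2-fold, 3 of the 31 (9.68%) were lower and 3 (9.68%) higher, against 12.1% and 8.69% of all windows with the core. The same direction was seen over all 3071 windows with the core, whose median was -0.17 against -0.42 for the rest, so a smaller difference at RE1 was not particular to the neuronal genes. GC content differed too. Away from promoters, neuronal windows with RE1 and no AP-1 had a median GC content of 55.2%, against 47.8% for those with neither. The part of GC content in the difference at RE1 was not tested. A match of letters is not a measurement of REST binding.

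The 3 windows with an RE1 core that were at least 2-fold lower had 2 mismatches in it and also held an AP-1 motif. They lie in an intron of the postsynaptic scaffold gene Dlg2 (196 and 52.5 reads, a difference of -1.90), near Elavl3 (333 and 117 reads, -1.50) and downstream of the scaffold gene Dlg4 (227 and 101 reads, -1.17). The 3 that were higher had few reads in 4in1_GFP_OE. They are introns of Dlg2 (14.3 and 52.0 reads, 1.86), of the NMDA receptor gene Grin2b (31.3 and 75.4 reads, 1.27) and of the calcium channel gene Cacna1a (35.0 and 71.9 reads, 1.04).

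**Figure D1:**
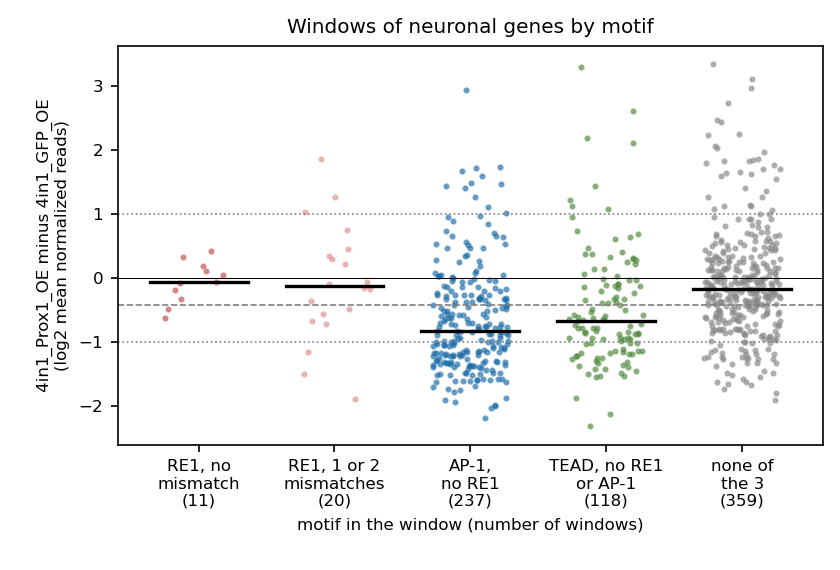
Difference between the arms (4in1_Prox1_OE minus 4in1_GFP_OE, log2 mean normalized reads) for each of the 745 windows of the neuronal genes, grouped by the motif in the window, with the number of windows under each group. Points are windows, black bars are medians, the dashed line is the median of all windows (-0.42) and the dotted lines mark 2-fold. The 11 windows with an exact RE1 core lie between -0.62 and 0.42, and the 237 with AP-1 and no RE1 have the lowest median (-0.83).

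The promoter windows of the neuronal genes were accessible in both arms and showed small differences. For each gene the window with the highest mean within 1 kb of a start site was taken, a start site being that of any transcript in the GENCODE basic set, and 33 of the 36 genes had one. The 3 without were Stmn2, Dcx, which encodes doublecortin, and Elavl3, a neuronal RNA-binding protein gene. Of the 33 windows, 0 were at least 2-fold lower and 0 at least 2-fold higher, with a range from -0.64 to 0.42, a median of -0.11 and quartiles of -0.37 and 0.04. Over the 15169 protein-coding genes with a promoter window the median was -0.19, with quartiles of -0.32 and -0.08, and 2.70% were lower and 1.17% higher by at least 2-fold. The counts of 0 among the 33 lie near that background and are not a result about the neuronal genes, whose quartiles lay further apart. In 4in1_Prox1_OE, 11 of the 33 (33.3%) had more reads than in 4in1_GFP_OE, against 17.1% of all protein-coding genes. Relative to the median window, 26 of the 33 (78.8%) were higher, against 83.3% of protein-coding genes. For 14 of the 33 genes there were several promoter windows, and the mean difference over them had the opposite sign to the chosen window for 4, Elavl2, Gria1, Cacna1a and L1cam. The values in the next paragraphs are those of the chosen window, with the mean over all promoter windows added. For Ank2, where it is not repeated below, that mean was -0.30.

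Among the cytoskeleton genes, Map2, whose product binds dendritic microtubules, had 437 reads at its promoter in 4in1_GFP_OE and 470 in 4in1_Prox1_OE, a difference of 0.10. The tau gene Mapt had 642 and 635 reads (-0.02), the highest of the 33 promoters in both arms. Nefl, the light neurofilament gene, had 176 reads in each (0.00), and Nefm had 257 and 239 (-0.11). Over both promoter windows of Map2 the mean difference was 0.34, and over both of Nefm it was -0.30.

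Tubb3, which encodes the neuronal beta-tubulin commonly stained as a neuron marker, had 467 and 380 reads, a difference of -0.30. Nefh had 270 and 207 reads (-0.38). Ank2, an ankyrin gene, had 518 and 401 reads (-0.37). The promoter of Gap43, which encodes a growth cone protein, had 274 and 181 reads, and its difference of -0.60 was the lowest of this group, with a mean of -0.16 over its 2 promoter windows. Relative to the median window, Gap43 was still lower while Tubb3, Nefh and Ank2 were slightly higher.

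Among the RNA-binding protein genes, Elavl4 had 407 and 403 reads (-0.01) at its chosen window and 175 and 95.7 (-0.87) at a second one, a mean of -0.44. Elavl2 had 487 and 458 reads (-0.09), but 230 and 363 (0.66) at another start site, and the mean over its 4 promoter windows was 0.23. Rbfox3 had 136 and 126 reads (-0.11) and Celf4 had 318 and 277 (-0.20).

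The genes of vesicle release had the highest promoter median of the 6 groups, 0.16. Of the 5, all but Snap25 had more reads with Prox1. Snap25 had 344 and 303 reads (-0.19) at its chosen window, with a mean of -0.61 over its 2 promoter windows. The promoter of Syp had 150 and 201 reads, and its difference of 0.42 exceeded those of 95.0% of protein-coding genes. Syt1, the gene for the calcium sensor of release, had 287 and 346 reads (0.27). Syn2, a synapsin gene, had 298 and 332 reads (0.16), and Stx1a, a syntaxin gene, had 524 and 538 (0.04).

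Synaptic organisers and scaffolds had the lowest promoter median of the 6 groups, -0.53. Nrxn3, a presynaptic neurexin gene, had 578 and 380 reads, a difference of -0.61, at an internal start site. At the outer start of its gene model, which begins no transcript of the basic set, there were 56.1 and 79.9 reads (0.51). Nlgn1, which encodes a neuroligin partner of the neurexins, had 265 and 183 reads (-0.53), with a mean of -0.22 over its 4 promoter windows. Dlg2 had 129 and 89.7 (-0.53). At its chosen window Dlg4 had 498 and 494 reads (-0.01), but its other three promoter windows were between -0.55 and -0.28 and the mean over all 4 was -0.32. Shank2 had 155 and 161 reads (0.06), with a mean of 0.43 over 3 windows.

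Glutamate receptor and channel genes were spread over a wider range. Scn2a had 412 and 264 reads, and its difference of -0.64 was the lowest of the 33 promoters, below all but 7.97% of protein-coding genes. This window lies at another start site than the RE1 window described above, and the mean over both was -0.35. The AMPA receptor gene Gria1 had 142 and 104 reads (-0.46) at its chosen window, while 2 weaker promoter windows were higher (0.82 and 1.13) and the mean over the 3 was 0.50. The AMPA receptor gene Gria2 (337 and 297 reads, -0.18) and the NMDA receptor gene Grin2b (160 and 131, -0.29) were lower by less than 2-fold. Grin1, the obligate NMDA receptor subunit gene, had 283 and 317 reads (0.16), Cacna1a had 325 and 333 (0.03, with a mean of -0.15 over 2 windows), and the sodium channel gene Scn3a had 166 and 160 (-0.05).

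Of the adhesion and guidance genes, the Slit receptor gene Robo2 had 408 and 272 reads (-0.59) and the adhesion molecule gene Ncam1 had 528 and 438 (-0.27). Cntn1, a contactin gene, had 226 and 266 reads (0.24). For L1cam the promoter window was the RE1 window given above, and the mean over its 2 promoter windows was -0.04.

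**Figure D2:**
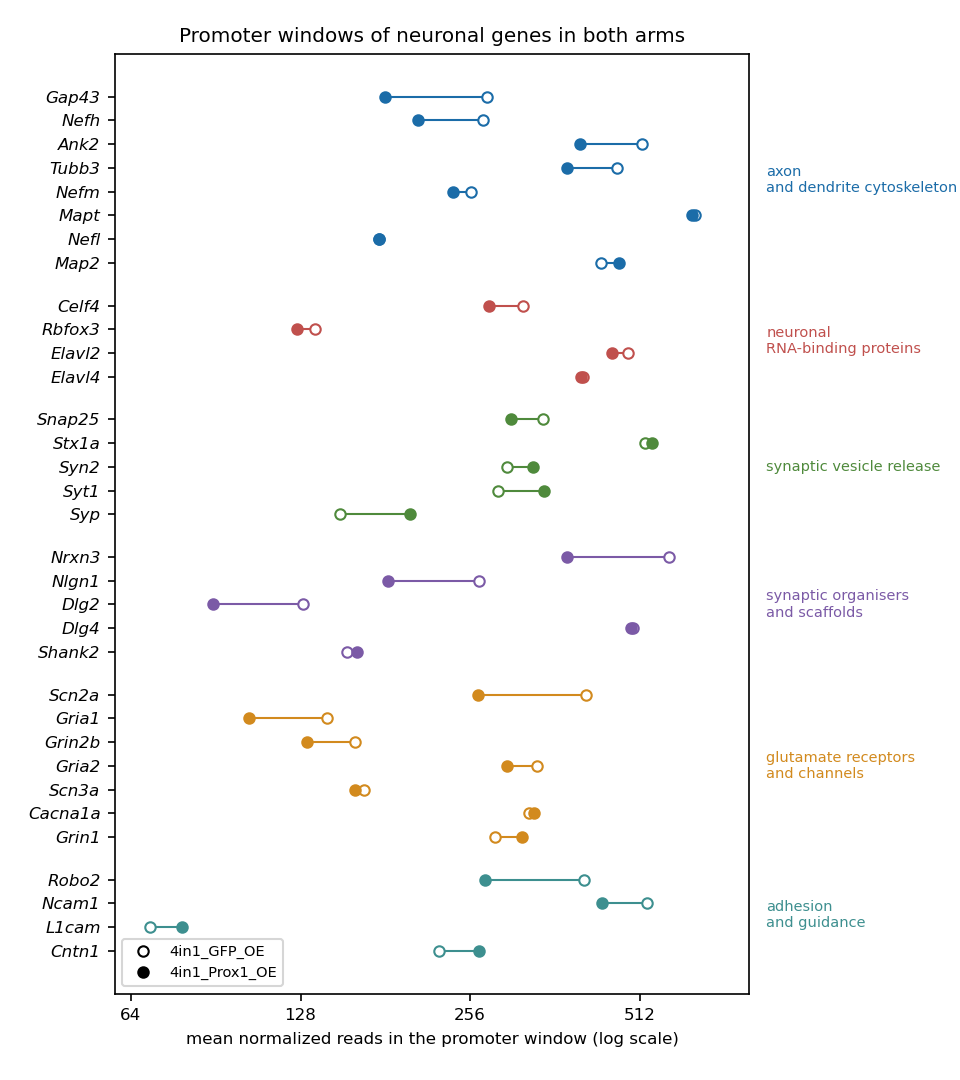
Mean normalized reads (log scale) in the promoter window of the 33 neuronal genes that have one, in 4in1_GFP_OE (open circles) and 4in1_Prox1_OE (filled circles), by role. Each point is the authors' mean over 3 libraries. No pair is 2-fold apart, and the longest lines are those of Scn2a, Nrxn3, Gap43 and Robo2.

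Counting every window within 1 kb of a start site of the genes, 58 in all, 1 was lower and 2 were higher by at least 2-fold, where 8.26% of the 22215 promoter windows of any gene were lower and 3.16% higher. The lower one was a second window of Snap25, centred 76 bases upstream of its annotated start, with 151 and 73.1 reads (-1.04), while the RE1 window 0.85 kb downstream was at -0.19. The higher ones had few reads and lie at Gria1 (39.3 and 86.1 reads, 1.13) and Shank2 (22.1 and 46.8 reads, 1.08). The 22215 promoter windows of any gene include those of noncoding genes, so these shares come from unlike sets. With 1 window per protein-coding gene, 2.70% were lower and 1.17% higher. Another 4 windows, not among the 58, lie close to the outer start of a gene model that begins no transcript of the basic set, at Nrxn3 (0.51), Dlg2 (-0.18), Cacna1a (0.67) and L1cam (-0.18).

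Outside promoters the neuronal loci followed the rest of the genome. Of all 745 windows, 178 (23.9%) were at least 2-fold lower with Prox1 and 57 (7.65%) at least 2-fold higher, and over all windows of the table these shares were 24.4% and 8.33%. Both shares lie near the background and are not a result about the neuronal genes. The median difference was -0.39, with quartiles of -0.97 and 0.12. Relative to the median of all windows, 61 windows (8.19%) were lower and 94 (12.6%) higher, with 8.64% and 13.4% over all windows. Among the 663 windows at no promoter of any gene, 25.9% were lower and 8.30% higher, against 26.7% and 9.08% of the 154465 such windows in the table.

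**Figure D3:**
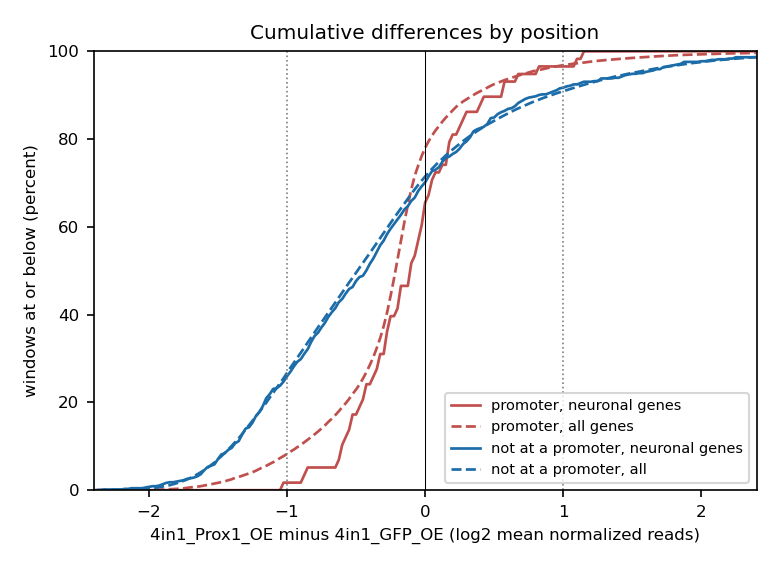
Cumulative percent of windows at or below a difference between the arms (4in1_Prox1_OE minus 4in1_GFP_OE, log2 mean normalized reads), for promoter windows (red) and windows at no promoter (blue), of the neuronal genes (solid) and of all genes (dashed). The blue curves lie on each other, and the solid red curve reaches -1 with 1.72% of windows below it, against 8.26% for the dashed one. The dashed red curve includes promoters of noncoding genes, and with 1 window per protein-coding gene the share was 2.70%.

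The difference varied with position in the loci, and only the intron windows lay close to their class in the whole table. The 588 intron windows had a median of -0.47, with 26.5% lower and 8.67% higher, and all intron windows of the table a median of -0.52, with 27.2% and 8.68%. The 25 exon windows had a median of -0.02 with 5 (20.0%) lower and 0 higher, against -0.24, 17.8% and 9.29% over all exon windows. The 50 windows in the flanks had a median of -0.31. A further 24 windows lie at the promoter of another gene, with a median of -0.37 and 20.8% lower, against -0.21 and 8.26% over all promoter windows. Outside promoters the median was -0.18 from 1 to 10 kb from the nearest start site of the gene, -0.36 from 10 to 50 kb, -0.48 from 50 to 200 kb and -0.64 beyond 200 kb. These distances were not computed for other genes. GC content moves with these classes. In the third of windows with the lowest GC content the median was -0.62 (all windows -0.72), and in the third with the highest it was -0.13 (all windows -0.20). The part of GC content in the distance pattern was not tested.

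Single genes differed widely. Among the 31 neuronal genes with 5 or more windows the gene medians ran from -0.97 to 0.33, and their median was -0.36, where that of the 10902 protein-coding genes with as many windows was -0.31. The quartiles were -0.59 and -0.24 for the neuronal genes and -0.55 and -0.14 for the protein-coding genes. The spread was therefore not particular to the neuronal genes. Many of the neuronal genes are long. For the 22 over 100 kb the median was -0.46, and for all 2313 such protein-coding genes it was -0.49.

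Map2 (ENSMUSG00000015222.17, chr1:66175273-66442583, + strand) had the lowest median of the genes with 5 or more windows. Of its 22 windows, 18 were below 0, 10 at least 2-fold lower and 2 at least 2-fold higher, with a median of -0.97, which was lower than that of all but 3.63% of protein-coding genes. The promoter window of the gene was at 0.10. Syn2 had 7 lower and 0 higher of 15 windows, with a median of -0.59, and a promoter at 0.16. In Scn3a 4 of 10 windows were lower and the median was -0.95, with the promoter at -0.05.

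The long genes of the synapse held many windows. Dlg2 (ENSMUSG00000052572.17, chr7:90476672-92449247, + strand) had 34 lower and 6 higher of 99 windows, with a median of -0.76. Grin2b had 14 lower and 4 higher of 41 (-0.74), Nlgn1 had 12 lower and 1 higher of 32 (-0.71), and Nrxn3 had 13 lower and 5 higher of 51 (-0.59). Gria2 had 5 lower and 1 higher of 11 (-0.48) and Gria1 7 lower and 5 higher of 26 (-0.52). Dcx, which had no promoter window, had 2 windows, and both were lower (median -1.39). In Nefm 3 of 6 windows were lower (-0.77). The annotated body of Nefm spans Nefl, so the Nefl promoter window is counted for both.

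At the other end, 5 genes with 5 or more windows had medians above 0. The other 26 of the 31 (83.9%) were below 0, against 87.5% of protein-coding genes, so this count lies near the background. Elavl3 had a median of 0.33 over 9 windows, Rbfox3 of 0.24 over 38, Stx1a of 0.17 over 12, Grin1 of 0.15 over 7 and Mapt of 0.11 over 20. Rbfox3 (ENSMUSG00000025576.17, chr11:118489762-118911597, - strand) had 2 lower and 3 higher windows, and 15 of its 38 were below 0. The median of Rbfox3 exceeded that of 96.1% of protein-coding genes. Shank2, with 2 lower and 3 higher of 44 windows (-0.26), Cacna1a, with 6 and 2 of 40 (-0.11), and Elavl2, with 0 and 1 of 7 (-0.05), lay between.

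Of the remaining genes, Ank2 had 13 lower and 9 higher of 61 windows (median -0.35), Syt1 8 and 4 of 35 (-0.29), Ncam1 8 and 2 of 35 (-0.43), Celf4 8 and 0 of 34 (-0.45) and Cntn1 3 and 2 of 20 (-0.36). Robo2 had 2 lower and 1 higher of 10 (-0.70) and the fewest windows for its length, 1.85 per 100 kb, where Stx1a had the most, 25.2. The genes with 9 or fewer windows that are not named above, Tubb3, Nefh, Stmn2, Gap43, Elavl4, Snap25, Syp, Dlg4, Scn2a and L1cam, had from 0 to 2 lower windows each, and only Nefh had a higher one.

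**Figure D4:**
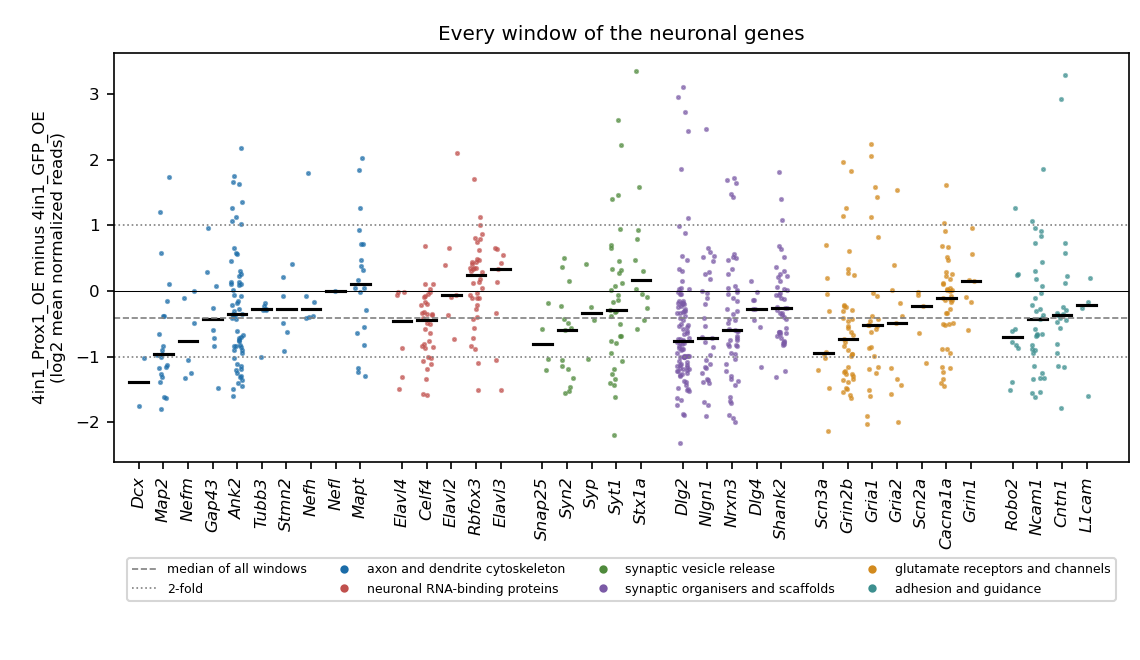
Difference between the arms (4in1_Prox1_OE minus 4in1_GFP_OE, log2 mean normalized reads) for every window of the 36 neuronal genes, in columns by gene and coloured by role. Black bars are gene medians, the dashed line is the median of all windows and the dotted lines mark 2-fold. Map2, Dlg2, Nlgn1 and Grin2b have medians well below the dashed line, and Rbfox3, Elavl3, Stx1a, Grin1 and Mapt have medians above 0.

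**Figure D5:**
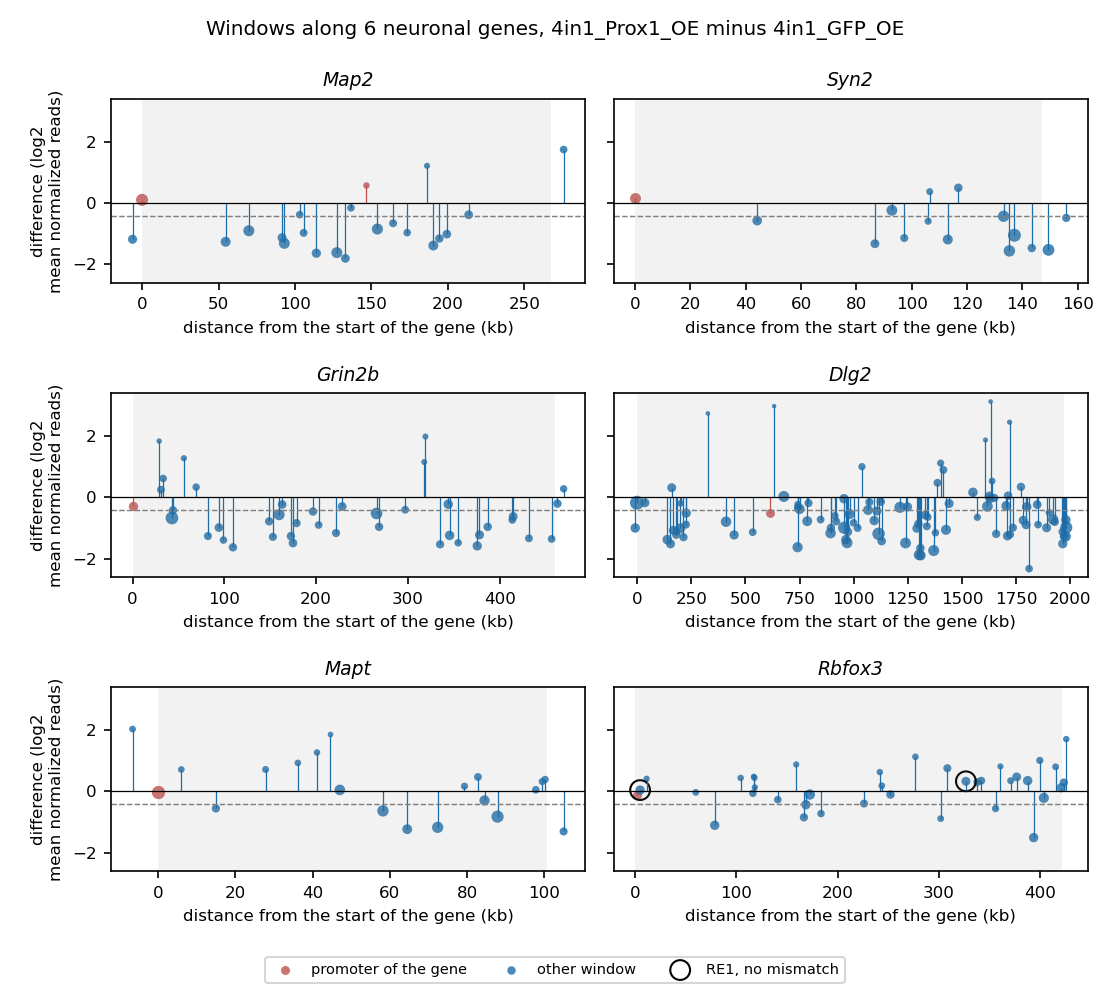
Windows along 6 of the genes, placed by distance from the start of the gene (kb, in the direction of transcription), with their difference between the arms (4in1_Prox1_OE minus 4in1_GFP_OE, log2 mean normalized reads). Grey marks the gene body, red the promoter windows, the dashed line the median of all windows, rings the exact RE1 cores, and the size of a point grows with the square root of the mean reads in 4in1_GFP_OE. Map2, Syn2, Grin2b and Dlg2 have most intron windows below 0, while those of Mapt and Rbfox3 lie on both sides.

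By role, the RNA-binding protein genes had the highest median over their windows, -0.10, with 14 of 94 (14.9%) lower and 4 higher. Synaptic organisers and scaffolds had the lowest, -0.57, with 62 of 235 lower and 15 higher. The cytoskeleton genes had 33 lower and 15 higher of 137 (median -0.37), vesicle release 18 and 6 of 70 (-0.30), receptors and channels 37 and 12 of 140 (-0.44), and adhesion and guidance 14 and 5 of 69 (-0.42). The groups hold from 4 to 10 genes, and a few long genes make up most of the windows of some.

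The lower windows had been well covered in 4in1_GFP_OE and the higher ones poorly. Part of this contrast follows from the selection, because both sets were picked by the difference from 4in1_GFP_OE. The 178 lower windows had medians of 146 reads in 4in1_GFP_OE and 56.0 in 4in1_Prox1_OE, and the 57 higher ones 29.0 and 86.2. Over all windows of the table the corresponding medians were 161 and 62.6, and 28.3 and 87.8. In the tenth of windows with the lowest mean, 22 of 82 neuronal windows (26.8%) were higher, against 29.2% of all windows in that range.

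For each role, the 2 lowest and 2 highest windows were named among those whose larger group mean was at least 132 reads, the median of that quantity over all windows, with promoters of other genes left out. Of the 12 lowest, 7 held AP-1 letters (TGANTCA) and 5 did not, and of the 12 highest 4 did. Sequences are shown for the lowest window of 5 roles and for the highest windows of 3, those of Stx1a, Cntn1 and Elavl2, to set them beside the RE1 windows. Capitals mark AP-1 letters in Syt1 and Nrxn3 and TEAD letters (GGAATG, either strand) in Scn3a, Ncam1, Cntn1 and Elavl2, all on the + strand of GRCm38. The windows of Map2 and Stx1a hold none of the 8 motifs searched.
Syt1 (chr10:108534180-108534380): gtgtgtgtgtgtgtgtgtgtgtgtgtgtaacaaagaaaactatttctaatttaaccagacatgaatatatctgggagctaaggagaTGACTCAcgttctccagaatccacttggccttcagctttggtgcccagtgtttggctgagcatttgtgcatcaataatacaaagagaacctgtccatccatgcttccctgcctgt
Scn3a (chr2:65529288-65529488): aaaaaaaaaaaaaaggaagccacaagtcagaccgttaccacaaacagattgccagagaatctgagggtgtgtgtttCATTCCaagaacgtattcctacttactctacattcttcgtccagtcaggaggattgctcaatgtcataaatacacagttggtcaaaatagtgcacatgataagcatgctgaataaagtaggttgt
Nrxn3 (chr12:89696112-89696312): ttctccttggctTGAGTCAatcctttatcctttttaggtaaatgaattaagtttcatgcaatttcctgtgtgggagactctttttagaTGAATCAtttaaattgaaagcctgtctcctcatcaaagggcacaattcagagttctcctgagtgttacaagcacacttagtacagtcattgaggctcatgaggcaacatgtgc
Map2 (chr1:66289131-66289331): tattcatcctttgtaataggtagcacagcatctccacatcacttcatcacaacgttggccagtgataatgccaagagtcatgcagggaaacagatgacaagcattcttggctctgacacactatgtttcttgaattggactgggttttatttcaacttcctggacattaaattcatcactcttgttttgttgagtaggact
Ncam1 (chr9:49722809-49723009): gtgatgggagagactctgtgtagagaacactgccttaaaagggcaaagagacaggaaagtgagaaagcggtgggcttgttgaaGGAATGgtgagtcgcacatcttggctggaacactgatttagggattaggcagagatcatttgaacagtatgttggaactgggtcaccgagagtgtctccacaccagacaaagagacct
Stx1a (chr5:135049382-135049582): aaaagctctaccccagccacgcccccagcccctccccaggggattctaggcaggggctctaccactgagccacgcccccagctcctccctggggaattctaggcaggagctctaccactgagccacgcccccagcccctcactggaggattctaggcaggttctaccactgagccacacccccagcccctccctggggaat
Cntn1 (chr15:92092086-92092286): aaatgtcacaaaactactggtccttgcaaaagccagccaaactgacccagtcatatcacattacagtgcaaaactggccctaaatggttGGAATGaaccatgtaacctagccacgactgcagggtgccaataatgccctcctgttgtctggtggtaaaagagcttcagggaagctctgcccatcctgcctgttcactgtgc
Elavl2 (chr4:91281625-91281825): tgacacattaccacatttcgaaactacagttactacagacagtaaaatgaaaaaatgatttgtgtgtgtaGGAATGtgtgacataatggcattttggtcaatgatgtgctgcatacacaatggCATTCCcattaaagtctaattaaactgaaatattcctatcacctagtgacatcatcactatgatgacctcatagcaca

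The intron window of Syt1 had 190 and 41.5 reads, a difference of -2.19. The Scn3a window, over a coding exon, had 180 and 40.8 reads (-2.14), and the Nrxn3 intron window, with 2 AP-1 motifs, had 166 and 43.0 (-1.94). In introns of Map2 and Ncam1 there were 155 and 49.9 reads (-1.63) and 178 and 61.4 reads (-1.53). Each of the 5 was lower by more than 2-fold.

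Among the higher windows, that of Stx1a had 14.8 and 151 reads, a difference of 3.35, the highest of all 745. Its sequence is a tandem repeat, 70.3% identical to itself at a shift of 53 bases, where the median neuronal window reached 35.2% at its best shift between 25 and 100 bases. How reads that match several copies were placed is not known for this window. The Cntn1 intron window had 13.9 and 137 reads (3.30), and that of Elavl2 had 37.4 and 161 reads (2.11).

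Other windows named by the same rule were lower in introns of Gria2 (169 and 42.1 reads, -2.003, with 2 AP-1 motifs), Nlgn1 (143 and 38.2, -1.90), Map2 (300 and 98.2, -1.61), Robo2 (306 and 107, -1.52), Syn2 (360 and 122, -1.56) and Celf4 (378 and 127, and 159 and 53.1, both -1.58). Higher ones were found in introns of Nrxn3 (56.8 and 179, 1.65) and Robo2 (55.5 and 133, 1.26) and in the flanks of Mapt (44.1 and 180, 2.03) and Map2 (74.0 and 248, 1.74). In several genes, Map2, Nrxn3 and Robo2 among them, windows of both directions stood in the same locus. The rest of the highest were under 2-fold, at Rbfox3 (88.9 and 150, 0.75), Syt1 (160 and 253, 0.66), Dlg2 (82.6 and 153, 0.89), Cacna1a (131 and 249, 0.92) and Grin1 (113 and 166, 0.56).

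AP-1 letters were the most frequent motif. They were found in 247 of the 745 windows (33.2%, all windows 28.8%), and those windows had a median of -0.80 against -0.25 for the rest. Of the 178 lower windows 57.3% held AP-1, of the 57 higher ones 21.1%, and of those between 26.1%. Over all windows the shares were 46.9%, 20.0% and 23.3%. In each of the 6 roles the windows with AP-1 had a lower median than the role as a whole, from -0.99 for the cytoskeleton genes to -0.75 for organisers and scaffolds. Away from promoters, the 227 windows with AP-1 and no RE1 had a median of -0.84, the 17 with RE1 and no AP-1 a median of 0.11, the 8 with both a median of -0.49, and the 411 with neither a median of -0.30. Over all windows the same classes had medians of -0.83, -0.10, -0.58 and -0.35.

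TEAD letters were in 158 windows (21.2%, all windows 20.1%), with a median of -0.67 against -0.33 without (all windows -0.64 and -0.37). The E-box CAGCTG was in 114 (15.3%, all windows 15.9%), with -0.33 and -0.40 (all windows -0.38 and -0.42). GATA letters (AGATAA) were in 49 (6.58%, all windows 6.72%), with -0.76 and -0.37 (all windows -0.54 and -0.41). FOXA letters (TGTTTAC) were in 17 (2.28%, all windows 2.65%), with -0.65 and -0.38, while over all windows the order was the other way, -0.39 and -0.42. The NFI palindrome (TTGGC and GCCAA with 5 bases between) and the PROX1 palindrome (AAG and CTT around CG, with 1 free base on each side of it) were in 0 of the 745 windows, and in 0.067% and 0.096% of all windows. No motif is contained in another, though they can share a window. All motifs were searched on both strands, and no match says only that these letters are not in a window.

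A wider set of 94 neuronal genes, taken in 5 lists that share no gene with the 36, gave similar values. Of these, 91 had a promoter window, with a median difference of -0.10 and a range from -0.94 to 1.51, and 0 were at least 2-fold lower and 2 at least 2-fold higher. The highest was Cntnap2, which encodes an axonal adhesion protein (48.6 and 139 reads, 1.51), and it had few reads in 4in1_GFP_OE.

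Among 16 genes for neuronal structure and RNA the promoter median was -0.04, from Map1b (405 and 276 reads, -0.55) to Celf6 (407 and 600 reads, 0.56). Of 19 presynaptic genes 18 had a promoter window, with a median of -0.10. The lowest of them was the glutamate transporter gene Slc17a6 (258 and 135 reads, -0.94) and the highest Sv2a (169 and 254 reads, 0.59). The 26 postsynaptic genes had a median of -0.16, from Lrrtm1 (171 and 107 reads, -0.68) to the kinase gene Camk2b (187 and 338 reads, 0.85). Ion channel genes, 12 in all, had a median of 0.00, with the sodium channel gene Scn1a the lowest (209 and 159 reads, -0.40). For adhesion and guidance, 19 of 21 had a window, with a median of -0.18 and Opcml (257 and 161 reads, -0.67) the lowest. Over all 1645 windows of the 94 genes, 23.6% were lower and 10.3% higher, shares near those of all windows.

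Genes of other cells gave a range of values. The 15 fibroblast genes had a promoter median of -0.46, from Vim (688 and 442 reads, -0.64) to Thy1 (156 and 179 reads, 0.20), and 0 were at least 2-fold lower or higher. The 2 hepatocyte promoters were Apob (289 and 246 reads, -0.23) and F2 (39.3 and 42.3 reads, 0.10). Among glial and Schwann cell genes, which share a neural origin with the neuronal ones, 9 of 12 had a promoter window, with 1 lower and 2 higher and a median of 0.06. Endothelial genes had 5 of 6, with a median of -0.53 and 1 lower, macrophage genes 2 of 6, with 1 lower, and epithelial genes 6 of 6, with a median of 0.05 and 1 higher. Differences ran from -1.05 to 1.22 for glial and from -1.59 to -0.03 for endothelial genes. They were -1.71 and -0.51 for macrophage genes and ran from -0.76 to 1.00 for epithelial genes. Of all protein-coding genes 2.70% were lower and 1.17% higher, and these lists are too short to give a share beside that. In bulk chromatin from a mixed culture, fewer cells with an open window and a less open window per cell cannot be told apart.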

How the data were processed

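ATAC-seq reads were, per the study's methods and the submitters' processing notes, trimmed with Trimmomatic 0.38, aligned to mm10 with Bowtie2 2.3.4.3, filtered with SAMtools 1.10, Picard 2.18.16 and bedtools 2.27.1, and counted in peak windows with DiffBind 3.4.11. MACS2 2.1.2 is named as the peak caller in the methods and Genrich in the reporting summary, so the caller is uncertain, and no normalization setting is stated. The authors deposited log2 values of mean normalized reads per window, over both groups and within each, and these are the values used. Of other columns, those with the p-value, the FDR and the log2 fold change of each window are the authors' own comparison and were not used, nor were their 2 lists of windows called in it.

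Windows were assigned to genes with GENCODE M21 and the 8 motifs searched in GRCm38.p6 with Python 3.11.15, pandas 2.3.3 and pysam 0.24.0, in scripts tested on simulated data. The genes, lists and motifs were chosen with earlier results of these data known. All 36 genes are named. Windows named are promoter windows, those with RE1, and per role the 2 lowest and 2 highest differences among windows with a larger group mean of at least 132 reads, promoters of other genes left out. From the wider lists the lowest and highest promoters are named, except 1 that is not reported here. From group means, 1 value per group, no test was made. Alternatives were other centrings, thresholds, filters and window rules. The hepatocyte gene Tf was not found under that symbol in the annotation.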

Additional observations from a re-analysis of the deposited data

How the results depend on the processing

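The direction of the typical difference depends on where 0 is placed. The median over the neuronal windows was -0.39 as deposited, 0.032 with the median of all windows as 0, 0.027 with both arms scaled to equal totals and -0.12 with the median of the 10% most accessible windows as 0. The promoter median was -0.11 as deposited and 0.31, 0.30 and 0.15 under those 3 centrings, with 0 of 33 promoters 2-fold apart in each. Of the 745 windows, 178 were at least 2-fold lower and 57 higher, which became 61 and 94 with the median as 0, 61 and 94 with equal totals, and 101 and 74 with the most accessible windows as 0. At a 1.5-fold threshold the counts were 310 and 94, and at a log2 difference of 2 they were 5 and 15. Without the 25% of windows of lowest mean, 129 of 529 were lower and 22 higher. Without the 5 genes with the most windows, 102 of 449 were lower and 30 higher and the median was -0.31, and the cause of the shift in the median was not tested. Gene bodies without flanks, the removal of promoters of other genes and autosomes only kept the direction of the median over all neuronal windows, and 2 kb promoters and the mean over promoter windows kept that of the promoter median. The gap between windows with and without AP-1 was -0.56, and -0.42 within deciles of mean reads. For RE1 it was 0.33, and 0.38 within deciles, 0.33 with exact cores and 0.34 with up to 1 mismatch, the last 2 chosen after seeing the data. For NFI and PROX1 no gap could be given, with 0 windows. No paired analysis was possible because the values are means over the libraries of a group, and for the same reason no replicate could be left out.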
